A study of Homo sapiens with 12 samples.

Results

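The genes described here are 39 genes of the endoplasmic reticulum (ER) unfolded protein response and of ER-associated degradation (ERAD), taken from a list by symbol and matched to the 57773 Ensembl genes of the count files. They were chosen by function, with earlier results of these data known. All 39 were found, and all 39 were among the 14714 genes with enough counts to be tested. By role they are 7 stress sensors, transcription factors and activating proteases, 9 chaperones and glycoprotein folding factors, 8 disulfide enzymes, 11 ERAD factors and 4 genes of translocation and ER export.

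RNA was measured in T47D cells, an estrogen receptor-positive luminal breast cancer line, that carry a hairpin RNA, inducible with doxycycline, to knock down PSMD2. PSMD2 is part of the 19S cap, which recognises and unfolds proteins for the proteasome. In the Lo19S groups the hairpin was induced with doxycycline at 0.2 µg/ml for 3 days. Control cells held the same hairpin and were left uninduced. After 24 h in medium without doxycycline, cells of both states received either the solvent DMSO or the proteasome inhibitor bortezomib at 20 nM for 16 h. Each of the 4 groups (control DMSO, Lo19S DMSO, control bortezomib and Lo19S bortezomib) had 3 libraries. The design compares the 2 states without and with the drug. Doxycycline was given to the Lo19S groups only, so its effect and that of the knockdown cannot be told apart. The labels do not state whether replicate libraries were separate cultures, so the p-values refer to the spread among these libraries, which may be technical.

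Proteins that enter the secretory pathway are folded in the ER by chaperones such as BiP, the product of HSPA5, by lectins that read their sugar chains and by enzymes that form and reshuffle disulfide bonds. When unfolded protein builds up, the sensors IRE1 (encoded by ERN1), ATF6 and PERK signal to the nucleus: IRE1 splices XBP1 mRNA so that it encodes an active transcription factor, ATF6 is cut free by the Golgi proteases S1P and S2P (encoded by MBTPS1 and MBTPS2), and PERK slows translation and favours synthesis of ATF4. Proteins that fail to fold are recognised by ERAD factors, moved back to the cytosol, tagged with ubiquitin and destroyed by the proteasome. The counts are per gene, so spliced and unspliced XBP1 mRNA cannot be told apart here.

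Library totals ran from 7376597 to 15003480 counts. Levels are given as library-size-scaled counts (CPM) with edgeR's TMM factors, which align the bulk of the genes between libraries. PSMD2, the knockdown target, was lower in Lo19S cells under DMSO (log2 fold change -1.13, SE 0.035) and under bortezomib (-1.48, SE 0.033), with no overlap between groups. These differences are within a treatment. With bortezomib PSMD2 rose over DMSO by 1.90 in control cells and by 1.55 in Lo19S cells. Control DMSO replicate 3 stood apart: chi-square of its counts over degrees of freedom was 3.94 and 4.27 when set against the other 2 libraries of its group, and between 1.16 and 1.97 in all other replicate pairs. The 9 markers of T47D and luminal cells summed to between 6963 and 7053 CPM in control DMSO libraries, 6192 and 6283 in Lo19S DMSO, 3928 and 4011 in control bortezomib and 3887 and 4062 in Lo19S bortezomib. These sums hide opposite moves of single markers. With bortezomib in control cells 3 of the 9 rose and 6 fell, 5 of them at least 2-fold (median log2 fold change -2.26). Of all genes tested 39.2% rose and 42.2% fell there. Under bortezomib 5 of the 9 were higher in Lo19S than in control cells and 2 lower, beside 22.0% and 21.2% of all genes. Markers of leukocytes summed to at most 3.07 CPM and those of endothelial cells to at most 0.378 CPM. Fibroblast markers summed to between 26.2 and 70.0 CPM, mostly COL1A1, and were highest in control bortezomib libraries (63.6 to 70.0) and next in Lo19S bortezomib (44.3 to 47.3). The part of these marker differences in the results below was not tested, and in RNA of a whole culture a change in RNA per cell cannot be told apart from a change in the mix of cells.

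Many targets of the response share short promoter elements. The ER stress response element (ERSE: CCAAT, then 9 bases of any kind, then CCACG) and ERSE-II (ATTGG, then 1 base of any kind, then CCACG) bind NF-Y together with ATF6 or XBP1, and the core TGACGTG of the unfolded protein response element binds ATF6 or XBP1. All 3 were searched on both strands of promoter windows from RefSeq (GRCh38.p14) that hold 250 bases before and 50 after a gene's start. Of the 39 genes, 35 had a window, with 44 windows in all. PDIA3, DERL1, DERL3 and SEC24D had none. ERSE was found in 9 of the 35 genes (HSPA5, HSP90B1, CALR, CANX, CRELD2, PDIA6, ERO1B, SERP1 and XBP1), against 25 of all 27305 genes with a window, or 0.0916%. ERSE-II was found in HERPUD1, HYOU1 and SDF2L1, against 19 of all genes, or 0.0696%. The core was found in HYOU1, SEC61A1 and TXNDC5, against 654 of all genes, or 2.40%. These elements are known from promoters of such genes, among them some of those listed here, so the counts describe the members and test nothing.

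Stretches of 8 of these promoters are shown because they hold the exact elements in genes whose responses are described below, including XBP1, whose level moved the opposite way. Each is read 5′ to 3′ on the gene's own strand, and capitals mark the fixed letters of an element. In HYOU1 the first block of capitals joins the core TGACGTG to an overlapping ERSE-II on the other strand. On the minus strand, HSPA5 is at chr9:125241374-125241483, PDIA6 at chr2:10812836-10812895, XBP1 at chr22:28800590-28800659 and HYOU1 at chr11:119057261-119057405. On the plus strand, HSP90B1 is at chr12:103930210-103930349, CRELD2 at chr22:49918529-49918588, HERPUD1 at chr16:56931992-56932051 and SDF2L1 at chr22:21642092-21642146. All lie upstream of the annotated start, and these positions belong to GRCh38.p14, another build than the GRCh37 of the counts.
HSPA5: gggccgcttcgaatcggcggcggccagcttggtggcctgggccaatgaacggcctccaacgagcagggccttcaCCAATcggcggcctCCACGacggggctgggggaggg
HSP90B1: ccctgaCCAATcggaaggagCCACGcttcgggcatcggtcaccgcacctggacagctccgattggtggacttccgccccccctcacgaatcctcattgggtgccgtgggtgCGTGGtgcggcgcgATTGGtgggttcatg
PDIA6: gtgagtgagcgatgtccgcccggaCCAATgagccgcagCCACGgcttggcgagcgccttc
CRELD2: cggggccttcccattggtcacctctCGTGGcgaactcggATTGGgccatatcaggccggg
XBP1: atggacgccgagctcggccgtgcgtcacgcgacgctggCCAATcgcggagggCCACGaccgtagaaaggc
HERPUD1: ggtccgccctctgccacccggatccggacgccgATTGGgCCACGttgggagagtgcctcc
HYOU1: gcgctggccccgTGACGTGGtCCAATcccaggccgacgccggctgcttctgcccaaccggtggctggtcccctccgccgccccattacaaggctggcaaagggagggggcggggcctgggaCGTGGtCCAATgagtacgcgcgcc
SDF2L1: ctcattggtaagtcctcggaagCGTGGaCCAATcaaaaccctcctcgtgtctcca

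In control cells, bortezomib was followed by higher RNA of nearly every chaperone, disulfide enzyme, ERAD factor and export gene, and by lower RNA of XBP1, CREB3L2 and both activating proteases. Of the 39 genes, 33 rose, 4 fell and 2 were not called by edgeR's quasi-likelihood test with Benjamini-Hochberg adjustment over all genes tested, at an adjusted p below 0.05. Among all genes tested, 39.2% rose and 42.2% fell, so a call in either direction was the usual outcome (81.4%). The median log2 fold change of the 39 genes was 1.04, beside -0.04 for all genes. At least a doubling was seen for 20 of the 39, against 14.5% of all genes, and 2 fell at least 2-fold, against 22.1%. When counts were scaled by library totals alone, the median of all genes moved by -0.38, and 25 of the 39 genes rose and 7 fell. Of all genes 82.7% were then called either way. The genes took 1.02% ± 0.0262 (SD, n = 3) of all counts in control DMSO libraries and 2.06% ± 0.00600 (SD, n = 3) in control bortezomib libraries. This share uses no TMM factor but is itself a scaling by library totals, so it is not independent of that choice. HSPA5 alone was 6.43% of the 39 genes' counts in control DMSO and 30.2% in control bortezomib libraries.

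**Figure D1:**
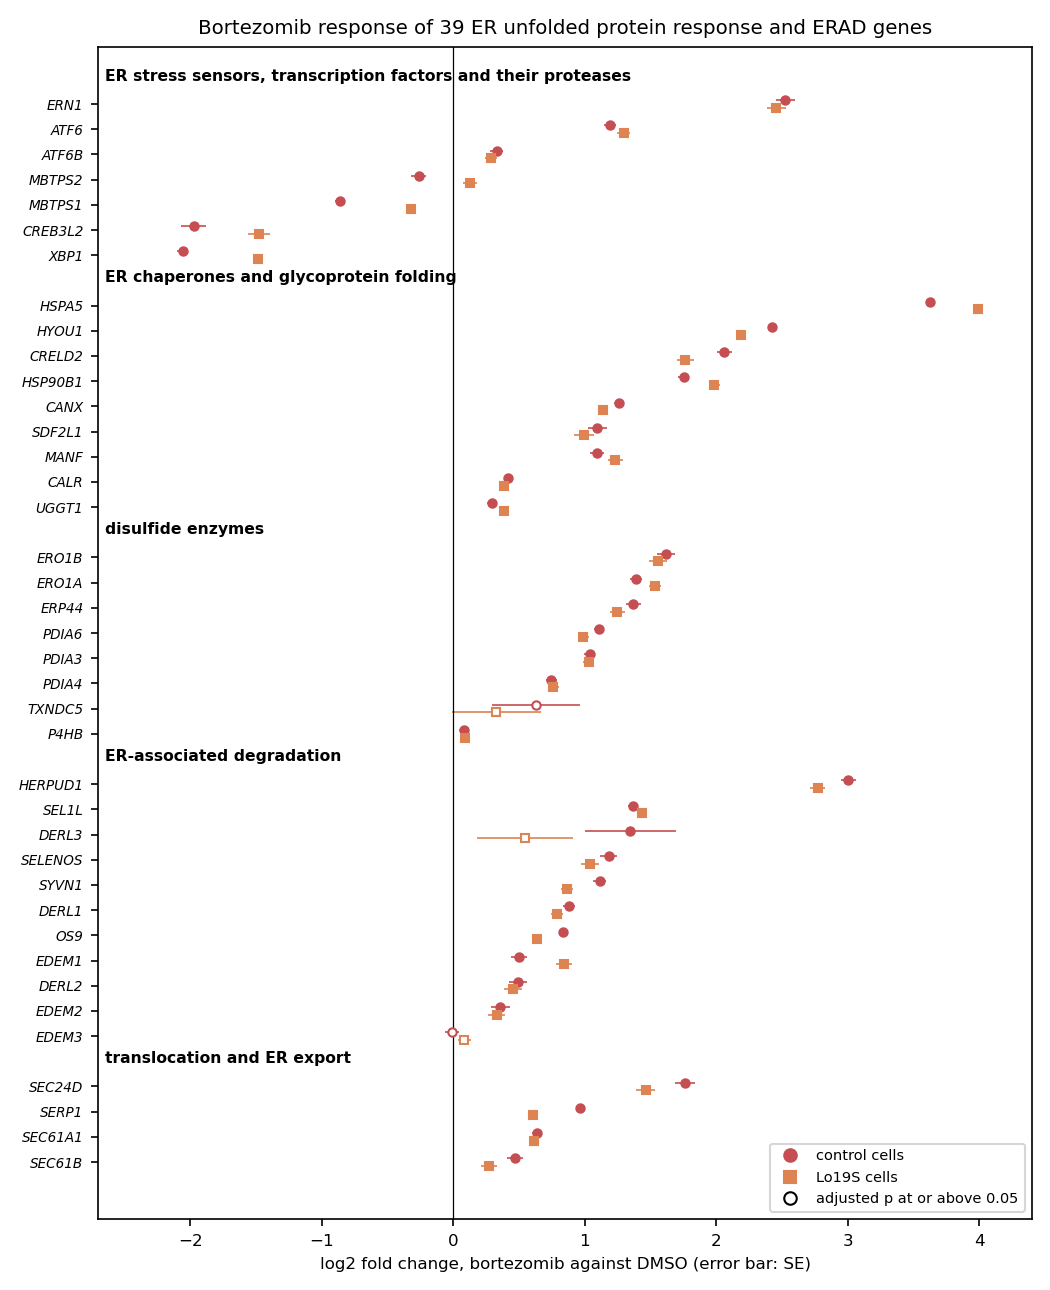
Log2 fold change (x axis) with bortezomib against DMSO for each of the 39 genes, grouped by role, in control cells (circles) and Lo19S cells (squares), with SE as bars and open symbols for adjusted p at or above 0.05. Points lie right of 0 for most genes of every role except the sensor group, where XBP1, CREB3L2 and MBTPS1 lie left of 0 in both states; with scaling by library totals ATF6B, UGGT1, P4HB, EDEM2, MBTPS2, EDEM3 and SEC61B change side in at least 1 state.

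The sensor ERN1 rose and its substrate XBP1 fell. ERN1 was at 15.9, 15.1 and 12.6 CPM in control DMSO libraries, 16.6, 16.8 and 13.7 in Lo19S DMSO, 85.1, 84.9 and 82.5 in control bortezomib and 86.6, 90.1 and 84.5 in Lo19S bortezomib. All bortezomib libraries lay above all DMSO libraries, and the 2 states overlapped under either treatment. In control cells the difference was 5.76-fold (log2 2.53, SE 0.074, adjusted p = 6.98e-33). XBP1 was at 843.7, 838.1 and 763.7 CPM in control DMSO libraries, 737.7, 731.5 and 723.1 in Lo19S DMSO, 202.0, 190.8 and 195.3 in control bortezomib and 246.8, 272.3 and 263.6 in Lo19S bortezomib. No 2 groups overlapped, and the order of the states turned around between treatments. XBP1 fell 4.16-fold in control cells (log2 -2.06, SE 0.040, adjusted p = 4.58e-40).

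ATF6, the sensor that is itself a transcription factor, was at 80.8, 87.4 and 78.7 CPM in control DMSO libraries, 80.6, 85.4 and 87.9 in Lo19S DMSO, 183.2, 184.2 and 196.7 in control bortezomib and 199.1, 212.0 and 210.6 in Lo19S bortezomib. It rose by 1.19 in control cells (SE 0.048, adjusted p = 1.91e-27). Its relative ATF6B was at 139.3, 134.5 and 159.3 CPM without and 187.4, 177.6 and 179.0 with bortezomib in control cells, and at 166.8, 167.3 and 160.2 without and 196.3, 205.7 and 203.3 with it in Lo19S cells. The change of ATF6B in control cells was 0.33 (SE 0.047), and -0.05 with scaling by library totals. The proteases that cut ATF6 both fell. MBTPS1 (S1P) was at 401.2, 393.4 and 388.8 CPM in control DMSO libraries, 363.3, 357.2 and 367.7 in Lo19S DMSO, 218.0, 218.6 and 215.7 in control bortezomib and 283.4, 299.5 and 288.8 in Lo19S bortezomib, with no overlap between any of the groups. It fell by 0.86 on the log2 scale in control cells (SE 0.036, adjusted p = 1.35e-26). MBTPS2 (S2P) fell by 0.26 in control cells (SE 0.057, adjusted p = 5.93e-05). CREB3L2, an ER membrane transcription factor of the same family as ATF6 that S1P and S2P also cut, was at 41.7, 44.8 and 41.9 CPM in control DMSO libraries, 38.6, 39.7 and 40.4 in Lo19S DMSO, 11.2, 10.1 and 11.3 in control bortezomib and 11.8, 13.9 and 15.9 in Lo19S bortezomib. All bortezomib libraries lay below all DMSO libraries, and the difference in control cells was 3.93-fold (log2 -1.97, SE 0.093, adjusted p = 1.59e-24).

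**Figure D2:**
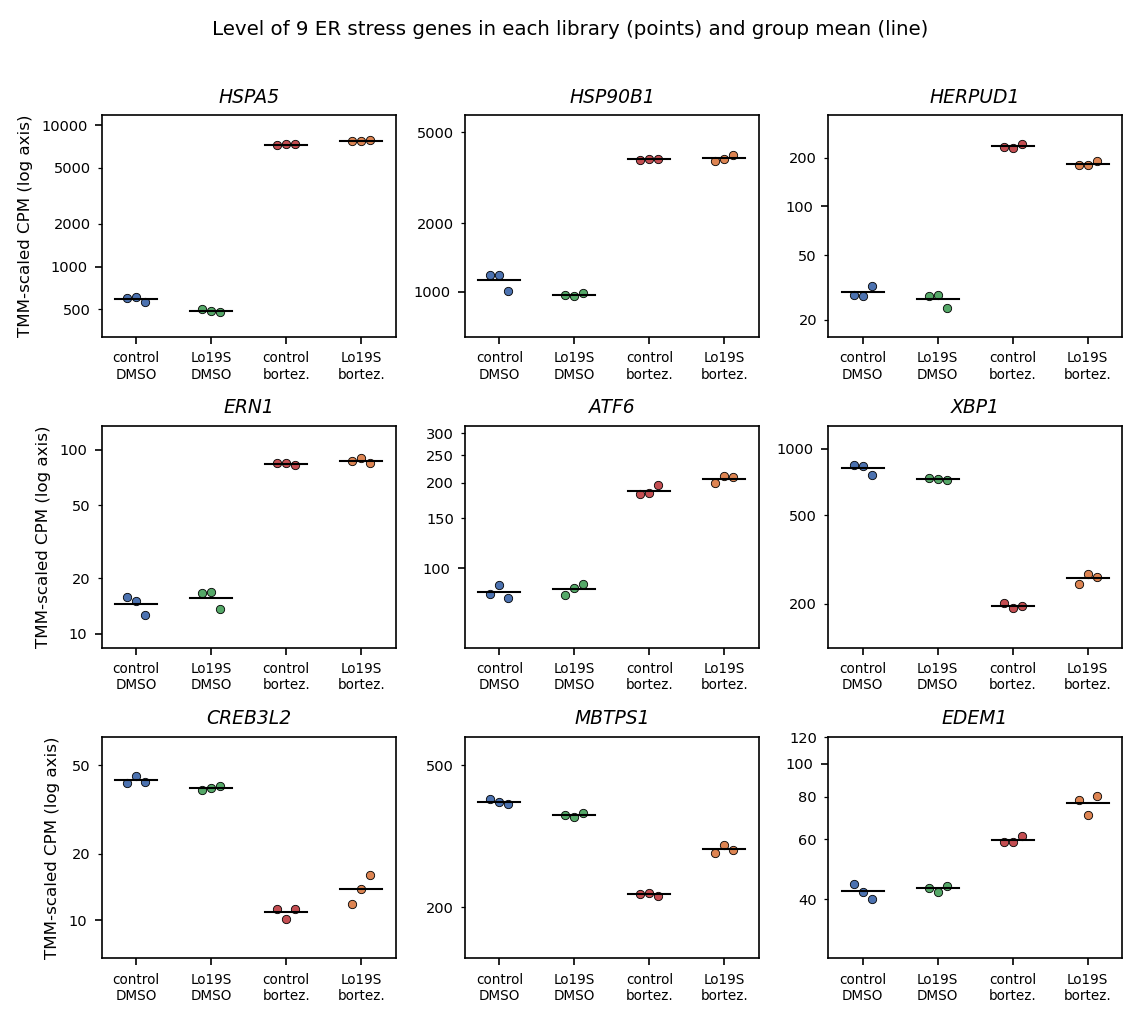
TMM-scaled CPM on a log axis for 9 of the genes in each library (points, 3 per group) with the group mean (line), for control and Lo19S cells with DMSO or bortezomib; each panel has its own axis range. HSPA5, HSP90B1, HERPUD1, ERN1, ATF6 and EDEM1 are higher in the bortezomib libraries, and XBP1, CREB3L2 and MBTPS1 are lower.

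All 9 chaperone and glycoprotein folding genes rose in control cells with a median log2 fold change of 1.26, and 7 of them at least doubled. With scaling by library totals 7 rose, UGGT1 fell by 0.09, and CALR was not called. HSPA5, which encodes BiP, the main ER Hsp70 and the protein that holds the sensors inactive, was at 599.7, 611.2 and 558.4 CPM in control DMSO libraries, 501.5, 484.9 and 478.3 in Lo19S DMSO, 7202, 7299 and 7379 in control bortezomib and 7732, 7685 and 7850 in Lo19S bortezomib. No 2 groups overlapped. The rise in control cells was 12.4-fold (log2 3.63, SE 0.035, adjusted p = 1.11e-53). HSPA5 alone made up 6.43% ± 0.131 (SD, n = 3) of the counts of the 39 genes in control DMSO libraries and 30.2% ± 0.257 (SD, n = 3) in control bortezomib libraries.

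HYOU1, an ER chaperone that exchanges nucleotide on BiP, was at 369.5, 367.3 and 402.0 CPM in control DMSO libraries, 352.8, 337.4 and 327.2 in Lo19S DMSO, 2027, 2048 and 2048 in control bortezomib and 1532, 1562 and 1546 in Lo19S bortezomib. Lo19S libraries were below control libraries under both treatments without overlap, and the rise in control cells was 5.38-fold (log2 2.43, SE 0.035, adjusted p = 7.83e-46). CRELD2, a secreted ER stress protein, rose from 28.8, 28.7 and 33.4 CPM to 129.0, 123.9 and 125.6 in control cells, and was at 28.0, 26.2 and 26.7 without and 90.7, 88.5 and 94.9 with bortezomib in Lo19S cells. Its rise in control cells was 4.18-fold (log2 2.06, SE 0.059, adjusted p = 2.57e-33). HSP90B1, the ER Hsp90 known as GRP94, changed by 1.75 (SE 0.041). The lectin chaperone CANX changed by 1.26 and its soluble relative CALR by 0.41, while MANF and SDF2L1, small ER stress proteins, each changed by 1.09. UGGT1, which tags unfolded glycoproteins for another round of folding, changed least among the 9 (0.29, SE 0.040).

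Per kilobase of all annotated exons of a gene joined, the order changed. The expressed transcript can be shorter, so levels of different genes compare only roughly and close ranks are not settled. Without the drug, control cells held CALR highest of the 39 genes at a mean of 313.9 CPM per kb, then XBP1 at 269.2, HSP90B1 at 240.3, CANX at 177.1 and HSPA5 at 150.9. With bortezomib HSPA5 stood first at 1866, then HSP90B1 at 809, CANX at 424, CALR at 418 and HYOU1 at 265. The ratio of HSPA5 to XBP1 counts within a library, which no scaling factor touches, was 0.724 ± 0.0113 (SD, n = 3) in control DMSO libraries and 37.2 ± 1.39 (SD, n = 3) in control bortezomib libraries.

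Of 8 disulfide enzymes 7 rose in control cells, with a median of 1.07, and 5 at least doubled. With scaling by library totals 6 rose, and P4HB fell by 0.30. Both oxidases that drive disulfide formation rose. ERO1B was at 26.4, 27.8 and 24.1 CPM in control DMSO libraries, 23.3, 26.5 and 26.6 in Lo19S DMSO, 80.7, 80.4 and 79.6 in control bortezomib and 73.1, 71.0 and 78.5 in Lo19S bortezomib. The states overlapped under DMSO only, and the change in control cells was 1.62 (SE 0.067, adjusted p = 5.99e-27). ERO1A was at 99.3, 105.6 and 88.8 CPM in control DMSO libraries and 256.6, 257.1 and 254.3 in control bortezomib, a change of 1.39 (SE 0.046), and at 93.9, 93.5 and 90.5 without and 257.4, 268.2 and 277.6 with bortezomib in Lo19S cells. ERP44, which retains the oxidases in the early secretory pathway, was at 47.5, 57.3 and 46.6 CPM without and 128.5, 130.7 and 131.0 with bortezomib in control cells (1.37, SE 0.059), and at 53.2, 50.9 and 52.4 without and 118.9, 117.6 and 132.8 with it in Lo19S cells.

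Among the protein disulfide isomerases, PDIA6, PDIA3 and PDIA4 changed by 1.11, 1.04 and 0.75 in control cells. P4HB, the founding isomerase, changed by 0.08 (SE 0.033, adjusted p = 0.0237 by edgeR), a call that is lost without a low-count filter and without control DMSO replicate 1, control DMSO replicate 2 or control bortezomib replicate 2 (adjusted p between 0.0585 and 0.971). TXNDC5 was not called (0.63, SE 0.335, adjusted p = 0.0806), with 7 to 23 counts a library. Its exons share 2658 bases with the readthrough gene BLOC1S5-TXNDC5, and the treatment of such reads is not given in the sources used here. PDIA3 and PDIA6 share 1410 and 1033 exon bases with genes on the other strand.

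Of 11 ERAD genes 10 rose in control cells, with a median of 0.88, and 5 at least doubled, and with scaling by library totals 7 rose and 1, EDEM3, fell. HERPUD1, a membrane protein that gathers the HRD1 ubiquitin ligase complex, was at 28.2, 28.1 and 32.2 CPM in control DMSO libraries, 28.1, 28.4 and 23.5 in Lo19S DMSO, 234.0, 230.3 and 244.3 in control bortezomib and 179.7, 180.1 and 189.6 in Lo19S bortezomib. The states overlapped under DMSO and were apart under bortezomib, and the rise in control cells was 8.03-fold (log2 3.00, SE 0.056, adjusted p = 4e-41). SEL1L, the adaptor of that ligase, was at 262.6, 260.6 and 235.1 CPM without and 648.2, 654.0 and 651.3 with bortezomib in control cells (1.36, SE 0.037), and at 233.0, 238.2 and 237.5 without and 632.8, 623.9 and 656.9 with it in Lo19S cells. SYVN1, the ligase itself, changed by 1.11 (SE 0.046), and SELENOS, a selenoprotein that recruits the p97 ATPase, by 1.18 (SE 0.064). The exons of SYVN1 share 398 bases with FAU on the same strand.

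The derlins, membrane channels of ERAD, changed by 0.88 (DERL1), 0.49 (DERL2) and 1.35 (DERL3). DERL3 had 9, 8 and 10 counts in control DMSO libraries, 15, 6 and 9 in Lo19S DMSO, 19, 19 and 13 in control bortezomib and 10, 12 and 16 in Lo19S bortezomib. It was called in control cells only, its difference of responses was not called (-0.80, SE 0.511), and 2923 of its exon bases overlap SMARCB1 on the other strand. The lectin OS9 changed by 0.84. Among the EDEM mannosidases, which trim the sugars of proteins to be destroyed, EDEM1 changed by 0.50 (SE 0.063) and EDEM2 by 0.36 (SE 0.072), and by -0.03 for EDEM2 with scaling by library totals. EDEM3 was at 127.1, 134.0 and 113.9 CPM without and 119.9, 125.5 and 127.8 with bortezomib in control cells, and these groups overlapped (-0.01, SE 0.052, adjusted p = 0.899 by edgeR).

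All 4 genes of translocation and export rose in control cells, with a median of 0.80, and with scaling by library totals 3 rose and SEC61B was not called. SEC24D, a cargo-binding coat protein of vesicles that leave the ER, was at 17.4, 17.7 and 15.5 CPM in control DMSO libraries, 21.3, 19.0 and 22.6 in Lo19S DMSO, 56.9, 60.4 and 54.8 in control bortezomib and 57.6, 57.4 and 57.6 in Lo19S bortezomib. Lo19S libraries were higher under DMSO without overlap, the states overlapped under bortezomib, and the change in control cells was 1.76 (SE 0.076, adjusted p = 3.98e-26). SERP1, which protects newly made membrane proteins at the translocon, was at 270.7, 271.3 and 266.8 CPM in control DMSO libraries, 273.6, 275.8 and 277.1 in Lo19S DMSO, 530.6, 516.4 and 534.2 in control bortezomib and 431.1, 418.6 and 407.6 in Lo19S bortezomib (0.97 in control cells, SE 0.035). SEC61A1, the channel subunit of the translocon, was at 415.8, 413.6 and 426.4 CPM without and 644.3, 649.1 and 655.4 with bortezomib in control cells (0.63, SE 0.032), and at 431.4, 436.7 and 428.2 without and 662.1, 660.8 and 664.7 with it in Lo19S cells.

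The 12 genes with ERSE or ERSE-II were set beside the 23 with a window and neither. In control cells 11 of the 12 rose and XBP1 fell, with a median log2 fold change of 1.44. Of the 23 others 18 rose, 3 fell and 2 were not called, with a median of 0.63 and a range from -1.97 (CREB3L2) to 2.53 (ERN1). In Lo19S cells the medians were 1.35 and 0.62. Outside the 39 genes, 32 genes had either element in a window, and 18 of these were tested. Of the 18, 12 rose, 3 fell and 3 were not called in control cells, where 39.2% of all genes rose and 42.2% fell. Their median was 0.37, with a range from -2.31 (SYNPO, SE 0.288) to 1.95 (NAV2, SE 0.210). TMEM120A (-1.02) and SHCBP1 (-0.42) were the other 2 that fell. Those with a known ER role, named after their values were seen, include NUCB1, an ER and Golgi calcium-binding protein (1.01, SE 0.048). FICD, the enzyme that modifies BiP (0.49, SE 0.117), and ALG12 (0.40, SE 0.082) are others. ALG12 and EIF2A share 168 and 153 exon bases with CRELD2 and SERP1 on the other strand. Their windows may hold the same elements as those of CRELD2 and SERP1, which was not tested. The 12 genes include both the largest rise of the 39 (HSPA5) and the largest fall (XBP1), whose stretches above both hold ERSE on the gene's own strand. No difference between these groups of genes was tested.

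**Figure D3:**
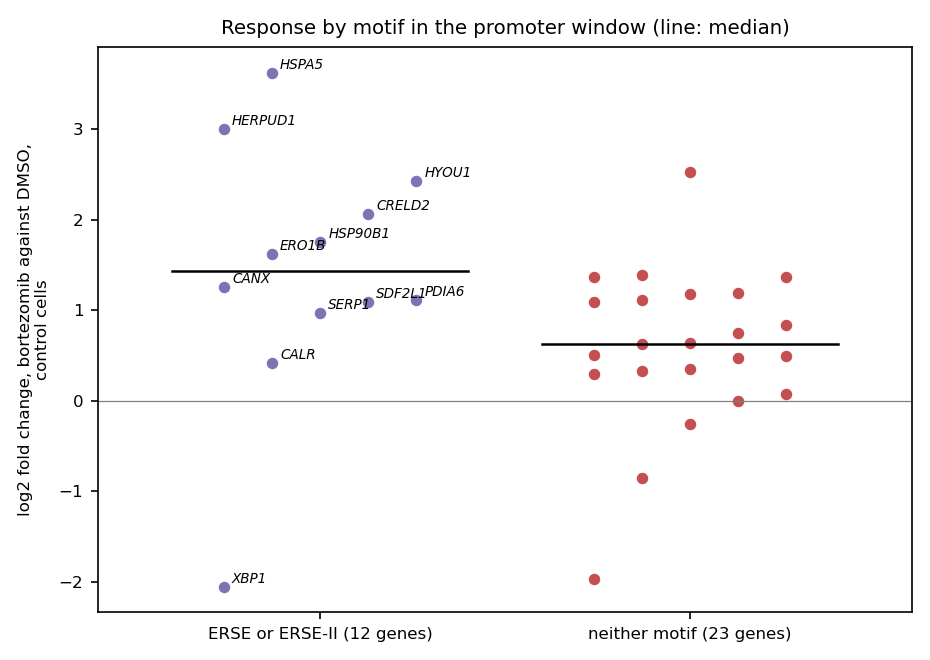
Log2 fold change with bortezomib in control cells (y axis) for the 12 genes with ERSE or ERSE-II in the promoter window (left, named) and the 23 with neither (right), one point per gene with the median as a line. The medians are 1.44 and 0.63, the named genes run from -2.06 (XBP1) to 3.63 (HSPA5), and genes near 0 on the right include ATF6B and EDEM2, which change side with scaling by library totals.

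In Lo19S cells bortezomib was followed by higher RNA of most members of the same classes. Of the 39 genes 33 rose, 3 fell and 3 were not called, where 37.8% of all genes rose and 39.7% fell (77.5% either way), 16 at least doubled, against 10.3%, and 2 fell at least 2-fold, against 18.5%. The median was 0.84, beside -0.02 for all genes. With scaling by library totals 28 rose and 6 fell, where 79.2% of all genes were called either way. All 9 chaperones rose (median 1.23), as did 7 of 8 disulfide enzymes (1.01), 9 of 11 ERAD genes (0.79) and all 4 export genes (0.61), while with library totals P4HB fell by 0.20, EDEM3 fell by 0.20, and EDEM2 and SEC61B were not called. HSPA5 rose 15.9-fold (log2 3.99, SE 0.035, adjusted p = 1.67e-54 by edgeR), HERPUD1 6.83-fold (2.77, SE 0.059) and ERN1 5.48-fold (2.46, SE 0.073). XBP1 fell 2.80-fold (-1.49, SE 0.039) and CREB3L2 2.78-fold (-1.48, SE 0.087). The 39 genes took 2.16% ± 0.0296 (SD, n = 3) of counts with bortezomib and 0.957% ± 0.00125 (SD, n = 3) without. HSPA5 alone was 33.1% of the 39 genes' counts with the drug and 5.75% without.

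Without bortezomib, the Lo19S state itself came with small differences, all of them under 2-fold (of all genes, 1.22% were higher by 2-fold or more and 0.238% lower by as much). Of the 39 genes 4 were higher, 13 lower and 22 not called, where 11.7% of all genes were higher and 13.0% lower (24.7% either way), with a median of -0.0546 beside -0.0043 for all genes. The lower ones were mostly chaperones and disulfide enzymes, and the rest were XBP1, MBTPS1 and MBTPS2 of the sensor class. Of 9 chaperones 6 were lower (HSPA5 -0.27, CALR -0.26, SDF2L1 -0.26, HSP90B1 -0.22, MANF -0.20 and HYOU1 -0.16), and of 8 disulfide enzymes PDIA3, PDIA6, PDIA4 and P4HB were lower (-0.22, -0.21, -0.14 and -0.10). In HSPA5 and CALR the states did not overlap, with CALR at 855.9, 856.2 and 843.5 CPM in control and 701.3, 718.9 and 709.8 in Lo19S libraries (SE 0.031, adjusted p = 2.13e-09 by edgeR). The 4 genes that were higher were EDEM2 (0.34, SE 0.069), SEC24D (0.31, SE 0.087), ATF6B (0.19, SE 0.046) and OS9 (0.11, SE 0.036). EDEM2 was at 31.7, 28.8 and 29.4 CPM in control and 38.2, 37.9 and 38.4 in Lo19S libraries, without overlap. Without control DMSO replicate 3, which stood apart from its group, 5 of the 39 were higher and 18 lower. The share of all genes called either way also rose in that fit, from 24.7% to 30.7%. Several of these calls were thin. That of OS9 needed the low-count filter and each of control DMSO replicates 1 and 2 and Lo19S DMSO replicates 1 and 3 (adjusted p between 0.0594 and 0.181 in their absence, by edgeR). Leaving out Lo19S DMSO replicate 2 ended the calls of SDF2L1, MANF and PDIA4 (adjusted p = 0.102, 0.0664 and 0.0520), and leaving out Lo19S DMSO replicate 3 those of P4HB and SEC24D (adjusted p = 0.0696 and 0.0525). SDF2L1 was also not called with DESeq2 (adjusted p = 0.0501), nor P4HB with library totals or with only the groups compared (adjusted p = 0.0543 and 0.0832). MBTPS2, lower by edgeR at -0.17, lost its call in 5 of 18 alternatives, namely DESeq2, only the groups compared, and omission of control DMSO replicate 1, control DMSO replicate 2 or Lo19S DMSO replicate 1 (adjusted p between 0.0630 and 0.0945).

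Under bortezomib the direction of the state difference varied between classes. Of the 39 genes 9 were higher in Lo19S cells, 14 lower and 16 not called, where 22.0% of all genes were higher and 21.2% lower (43.1% either way). With scaling by library totals 15 were higher and 9 lower, where 46.2% of all genes were called either way. In the sensor class 6 of 7 were higher, and all 7 with library totals, led by MBTPS1 (0.42, SE 0.037), XBP1 (0.41, SE 0.042) and CREB3L2 (0.38, SE 0.117). The call of CREB3L2 was lost without Lo19S bortezomib replicate 3, its highest library (0.23, adjusted p = 0.183 by edgeR). That of ATF6 (0.14) was lost without control bortezomib replicate 1, control bortezomib replicate 2 or Lo19S bortezomib replicate 3 (adjusted p between 0.0505 and 0.0545). Of the chaperones 5 were lower, namely CRELD2 (-0.46, SE 0.052), HYOU1 (-0.40, SE 0.033), SDF2L1 (-0.36, SE 0.068), CALR (-0.29, SE 0.031) and CANX (-0.15, SE 0.032), and HSPA5 was higher (0.09, SE 0.031, adjusted p = 0.0167), although it was lower under DMSO. HSPA5 was not called without control bortezomib replicate 1, without Lo19S bortezomib replicate 3 or without the low-count filter (adjusted p between 0.0517 and 0.0711). Of the disulfide enzymes PDIA6 (-0.33), PDIA3 (-0.23), PDIA4 (-0.12) and P4HB (-0.09) were lower. The call of PDIA4 was lost with library totals and without control bortezomib replicate 2 or Lo19S bortezomib replicate 3 (adjusted p between 0.0512 and 0.808). That of P4HB was lost with library totals, without the low-count filter and on omission of control bortezomib replicate 2, control bortezomib replicate 3 or Lo19S bortezomib replicate 1 (adjusted p between 0.0522 and 0.622). Among the 11 ERAD genes HERPUD1 (-0.36), SELENOS (-0.27), SYVN1 (-0.15) and OS9 (-0.08) were lower, and EDEM1 (0.37, SE 0.059) and EDEM2 (0.32, SE 0.069) were higher. The call of OS9 (adjusted p = 0.0445) was lost in 13 of 18 alternatives: library totals, where it stood at 0.03, DESeq2, the replicate block, no low-count filter, and omission of any 1 Lo19S DMSO, control bortezomib or Lo19S bortezomib library (adjusted p between 0.0537 and 0.574). CANX and SYVN1 were not called with library totals. Of the 4 genes of translocation and export SERP1 was lower (-0.33), a call kept in all 18 alternatives, and 3 were not called.

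**Figure D4:**
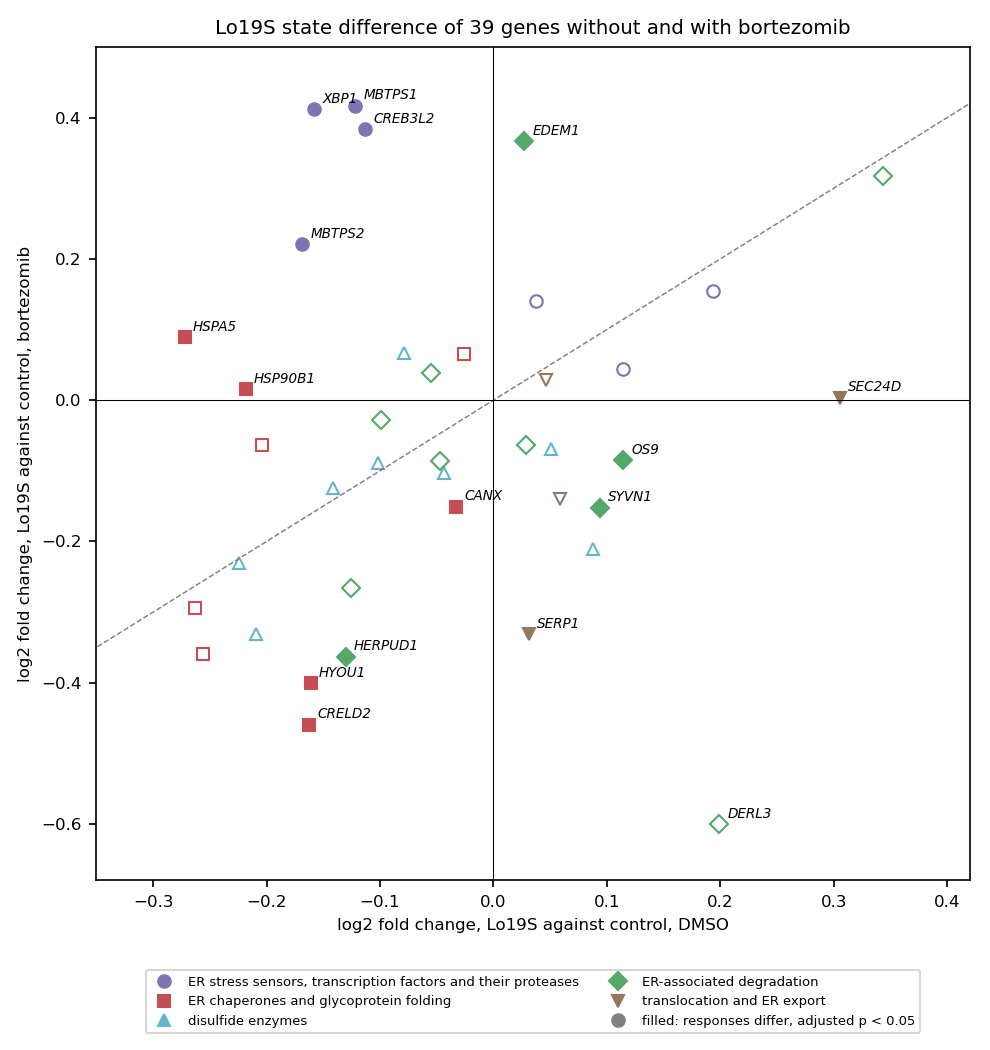
Log2 fold change of Lo19S against control cells without bortezomib (x axis) and with it (y axis), one point per gene, with symbols for roles, filled where the bortezomib responses of the states differ at an adjusted p below 0.05, and a dashed line where both differences are equal. XBP1, CREB3L2, MBTPS1 and MBTPS2 lie upper left of the line, and SERP1, CRELD2, HYOU1 and HERPUD1 below it. Both axes use control and Lo19S libraries that also enter the fill. With scaling by library totals OS9 and P4HB, both called lower with bortezomib, lie above 0 on the y axis. Genes near 0 that were not called on that axis, such as SEL1L (-0.0509 to 0.0822 over the alternatives), can change side too.

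The difference of the responses, Lo19S minus control, was tested as an interaction term. It was called for 15 of the 39 genes, 7 with a more positive response in Lo19S cells and 8 with a more negative one, where 14.4% of all genes had the first and 13.4% the second (27.8% either way). With scaling by library totals the split was 13 and 2, and without control DMSO replicate 3 it was 11 and 6. In these 2 fits 31.2% and 33.2% of all genes were called either way. All called members of the sensor class had the more positive response, with XBP1 at 0.57 (SE 0.055, adjusted p = 1.42e-11), MBTPS1 at 0.54 (SE 0.050, adjusted p = 4.37e-12), CREB3L2 at 0.50 (SE 0.136, adjusted p = 0.00415) and MBTPS2 at 0.39 (SE 0.081, adjusted p = 0.000175), all by edgeR. For XBP1, CREB3L2 and MBTPS1 this was a smaller fall in Lo19S cells. XBP1 and MBTPS1 fell there from a lower DMSO level, and CREB3L2 was not called under DMSO. Over the alternatives the DMSO difference ran from -0.204 to -0.135 for XBP1 and from -0.146 to -0.104 for MBTPS1. CREB3L2 was not called without Lo19S bortezomib replicate 3 (0.35, adjusted p = 0.0905).

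MBTPS2, whose exons share 1195 bases with other genes on the same strand, was the one gene called in opposite directions in the 2 states. It was at 75.0, 77.3 and 68.9 CPM in control DMSO libraries and 63.2, 62.7 and 58.7 in control bortezomib, and at 63.8, 67.6 and 65.6 in Lo19S DMSO and 73.0, 67.9 and 73.4 in Lo19S bortezomib. Neither pair of groups overlapped, by a narrow margin in Lo19S cells. The rise in Lo19S cells (0.13, SE 0.056, adjusted p = 0.0368 by edgeR) became a fall of 0.16 with scaling by library totals and was lost with DESeq2, without a low-count filter and without Lo19S DMSO replicate 1, Lo19S DMSO replicate 3, Lo19S bortezomib replicate 1 or Lo19S bortezomib replicate 3 (adjusted p between 0.0647 and 0.387).

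Of the chaperones, HSPA5 (0.36, SE 0.045, adjusted p = 1.39e-08) and HSP90B1 (0.23, SE 0.057) responded more strongly in Lo19S cells, from a lower DMSO level. HYOU1 (-0.24, SE 0.048), CRELD2 (-0.30, SE 0.089) and CANX (-0.12, SE 0.046) responded less. EDEM1 responded more strongly (0.34, SE 0.087, adjusted p = 0.00222): it was at 44.3, 41.9 and 40.1 CPM in control DMSO and 43.2, 42.1 and 43.8 in Lo19S DMSO libraries, which overlapped, and at 59.0, 58.8 and 61.5 in control and 78.5, 70.8 and 80.2 in Lo19S cells with bortezomib, which did not. SYVN1 (-0.25, SE 0.065), OS9 (-0.20, SE 0.050), HERPUD1 (-0.23, SE 0.087) and SEC24D (-0.30, SE 0.108) responded less, and SERP1 (-0.36, SE 0.049, adjusted p = 7.65e-08) did so from DMSO levels that differed by 0.03 (SE 0.035, not called). With scaling by library totals CANX, CRELD2, HERPUD1, SYVN1, OS9 and SEC24D were not called. None of the 8 disulfide enzymes was called, with 2 at an unadjusted p below 0.05 and differences from -0.30 (TXNDC5) to 0.15 (ERO1A).

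The calls of CANX, HERPUD1 and SEC24D were thin. CANX (adjusted p = 0.0486) was lost in 14 of 17 alternatives, among them every omission of 1 library except that of control DMSO replicate 2, with adjusted p up to 0.730. HERPUD1 (adjusted p = 0.0389) was lost in 11 of 17: with library totals, DESeq2 and no low-count filter (adjusted p = 0.236, 0.0722 and 0.106), and without any 1 of control DMSO replicate 1 or 2, Lo19S DMSO replicate 1 or 2, control bortezomib replicate 1 or 3, or Lo19S bortezomib replicate 1 or 2 (adjusted p between 0.0590 and 0.166). SEC24D (adjusted p = 0.0314) was lost in 9 of 17: with library totals, DESeq2 and no low-count filter (adjusted p = 0.143, 0.0896 and 0.102), and on leaving out control DMSO replicate 3, either of Lo19S DMSO replicates 1 and 3, control bortezomib replicate 2, or either of Lo19S bortezomib replicates 2 and 3 (adjusted p between 0.0519 and 0.111).

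Other ER genes in lists by function gave smaller medians in control cells with bortezomib. Among all genes tested, 39.2% rose and 42.2% fell there. Of 27 other folding factors 19 rose and 5 fell (median 0.48), with the largest changes in CLGN, a calnexin relative best known from testis (4.05, SE 0.220), and in the glucosidase MOGS (-0.71). Of 26 other ERAD factors 15 rose and 7 fell (median 0.23), from SELENOK, a selenoprotein of the ER membrane (2.36, SE 0.061), to FOXRED2, a flavoprotein that binds SEL1L and OS9 (-2.90, SE 0.079). Of 22 translocon, signal peptidase and oligosaccharyltransferase genes 15 rose and 3 fell (median 0.31, SRPRB 1.04 and SPCS1 -0.40). Of 18 other genes of ER export and retrieval 13 rose and 4 fell (median 0.50), with LMAN1, a cargo lectin, at 0.97 and the retrieval receptor KDELR3 at -1.67. Of 5 other ER membrane transcription factors related to CREB3L2 only CREB3 (0.84) and CREB3L4 (-2.58) could be tested.

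All 6 genes listed as the PERK branch rose in both states, where 39.2% of all genes tested rose in control cells and 37.8% in Lo19S cells. Whether PERK itself was active was not tested. DDIT3, the stress transcription factor CHOP, was at 18.9, 21.0 and 19.7 CPM in control DMSO libraries, 22.7, 22.1 and 19.1 in Lo19S DMSO, 317.9, 323.2 and 323.6 in control bortezomib and 434.6, 413.8 and 397.4 in Lo19S bortezomib, with changes of 4.02 and 4.27. PPP1R15A, the phosphatase subunit GADD34 that restores translation, was at 15.3, 17.0 and 17.8 CPM in control DMSO, 19.5, 16.3 and 18.4 in Lo19S DMSO, 408.1, 417.1 and 411.3 in control bortezomib and 184.1, 194.9 and 189.1 in Lo19S bortezomib libraries. Its response was smaller in Lo19S cells by 1.25 on the log2 scale (difference -1.25, SE 0.094, adjusted p = 5.31e-15 by edgeR), whereas that of DDIT3 was larger by 0.25 (SE 0.088, adjusted p = 0.0283) and that of CHAC1 by 0.68 (SE 0.244, adjusted p = 0.0323). ATF4, which drives the branch, differed by -0.23 (SE 0.062). EIF2AK3, which encodes PERK, and TRIB3 changed by 0.92 and 1.87 in control cells, with no call for the difference. All 4 tested of 6 mRNAs known to be cut by IRE1 fell in control cells, with a median of -0.77, the largest in SCARA3 (-2.91, SE 0.119), beside 42.2% of all genes.

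The 5 genes whose log2 CPM followed HSPA5 most closely over the 12 libraries were IFRD1 (Pearson r 0.9997), KLF6 (0.9992), ATP2A2, the ER calcium pump (0.9988), SEL1L (0.9984) and DNAJC3, an ER co-chaperone (0.9984). For XBP1 they were MAGEF1 (0.9993), PRLR, the prolactin receptor (0.9990), MGP (0.9985), NNT (0.9983) and DSTN (0.9981). These values describe 12 libraries that fall into 2 clusters, with and without bortezomib, and share that contrast.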

How the data were processed

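Polyadenylated RNA of T47D cells was sequenced in 12 libraries. The labels' protocols name TRIzol extraction and a stranded polyA library kit. The deposited tables, 1 a library, give raw counts per Ensembl gene as whole numbers. Per the submitters' processing notes the authors used STAR 2.5.4b and featureCounts 1.6.1 with GRCh37. How strand and multiply matching reads were handled is not given in the sources used here, and counts of overlapping genes are uncertain. Library totals ran from 7376597 to 15003480 counts.

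The 57773 identifiers were named with the reference tables at hand (51996 matched). Exon lengths and overlaps came from GENCODE 29, made for another build. Counts were filtered with filterByExpr by group (14714 genes), scaled with TMM factors and fitted over all 12 libraries with 1 coefficient per group by edgeR 4.0.16 in R 4.3.3 with its robust quasi-likelihood test. Adjusted p-values come from this test (Benjamini-Hochberg over all tested genes, within each of 5 comparisons), unless DESeq2 1.42.0 is named. The SE was taken as the size of the log2 change divided by the root of its F statistic, an approximation. The procedure was tested on simulated counts for bortezomib in control cells, with 200 genes changed and a dispersion of 0.01. That setting did not cover a change of most genes, so it says nothing on the choice of scaling. Promoter windows were searched by exact match. Protein sequences were not used here.

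The members and lists were chosen with earlier results of these data known. Values in every library were given for the called genes of largest change in each role (up to 3 higher and 1 lower), for differences of responses of at least 0.5 and for genes called in opposite directions, and for other genes picked after their values were seen: CREB3L2, whose difference lies just under 0.5, EDEM1 to EDEM3, CALR, DDIT3 and PPP1R15A. Of other lists, the largest change each way was named. Alternatives were DESeq2, RLE factors, library totals, no low-count filter, only the groups compared, a replicate block and each library left out.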

Additional observations from a re-analysis of the deposited data

Results flagged for a closer look

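The bortezomib responses of the 2 states differed, by the interaction term of edgeR's quasi-likelihood test with Benjamini-Hochberg adjustment, in 15 of the 39 genes. The log2 difference, Lo19S minus control, was 0.57 for XBP1, 0.54 for MBTPS1, 0.50 for CREB3L2, 0.39 for MBTPS2, 0.36 for HSPA5, 0.34 for EDEM1 and 0.23 for HSP90B1. It was -0.36 for SERP1, -0.30 for CRELD2, -0.30 for SEC24D, -0.25 for SYVN1, -0.24 for HYOU1, -0.23 for HERPUD1, -0.20 for OS9 and -0.12 for CANX. Among all genes tested 27.8% were called for this difference.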

How the results depend on the processing

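Each result was recomputed under the alternatives, and 3275 of 3471 recomputed values of single genes kept their direction and their side of the threshold. Another 50, called in neither fit, changed sign. With the sign kept, the call was lost in 101 and gained in 35. A further 10 values, called in either fit, changed sign, all of these 10 with scaling by library totals. Some of the 10 also lost their call (adjusted p between 0.306 and 0.796 by edgeR). These were ATF6B and EDEM2 in control cells, SEC61B in Lo19S cells, and P4HB and OS9 for the state difference under bortezomib. With library totals and bortezomib in control cells, ATF6B was at -0.0516, UGGT1 at -0.0866, P4HB at -0.302 and EDEM2 at -0.0252. In Lo19S cells MBTPS2 was at -0.16, P4HB at -0.20, EDEM3 at -0.20 and SEC61B at -0.0170. For Lo19S against control under bortezomib P4HB was at 0.0217 and OS9 at 0.0260. The median of the 39 genes became 0.66 for bortezomib in control cells, 0.55 in Lo19S cells, 0.0412 for the state difference under bortezomib (from -0.0696) and 0.0547 for the difference of responses (from -0.0383), since this scaling moved the median of all genes by -0.38, -0.29, 0.11 and 0.09. Without the low-count filter the medians for bortezomib were 0.97 and 0.79. With each library left out they ranged from 0.98 to 1.07 in control cells and from 0.80 to 0.88 in Lo19S cells, and from -0.0923 to -0.0271 for the state difference under DMSO. Where the cause is not named it was not tested. A replicate block, fitted because groups share replicate numbers, left 17, 37, 36, 22 and 14 of the 39 genes called in the 5 comparisons, against 17, 37, 36, 23 and 15. Of all genes tested, 23.4%, 81%, 77.1%, 42.1% and 26.4% were called with the block. Deviations of same-numbered libraries correlated between -0.235 and 0.0748 over 18 pairs, and 1 of 12 libraries correlated best with its own number, so the numbers were not read as pairs. With DESeq2 the counts were 15, 37, 35, 22 and 13. Of the genes that DESeq2 gave an adjusted p, 18.5%, 52.4%, 49.6%, 35.5% and 23.9% were called. Fitting only the groups compared could not be applied to the difference of responses. TXNDC5 and DERL3 were limited by depth, at 23 counts or fewer in any library.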
